A study of Mus musculus with 2 samples.

Results

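Suprabasal keratinocytes (KC) of the back skin were analysed as the cells of one library in which *Krt1* and *Krt10* together made up at least 100 of every 10000 unique molecular identifiers (UMIs, each counting 1 captured RNA molecule). Of the 571670 barcodes with a UMI in this library, 8899 passed limits of 500 or more genes, 1000 or more UMIs and no more than 10% of UMIs from mitochondrial genes. Of these, 1154 were suprabasal KC (12.97%, exact 95% interval 12.3 to 13.7%), out of 13598 such barcodes in the whole series. A cell with UMIs of 3 or more of 8 cell cycle genes (*Mki67*, *Top2a*, *Aurkb*, *Plk1*, *Ccnb2*, *Cenpa*, *Rrm2*, *Pclaf*) was left out, which removed 12 cells. The cells were chosen by their measured *Krt1* and *Krt10* UMIs, so the levels of both genes are a description. The cells nearest to the threshold stood at 100.9, 101.0 and 101.1 *Krt1*+*Krt10* UMIs per 10000 inside it and at 99.8, 99.7 and 98.9 outside it.

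The series compared skin with the preputial gland (PG), a large sebaceous gland of rodents, by droplet single-cell RNA sequencing. Both tissues came from wild type male C57BL/6 mice aged 52 weeks, and the tissue of 3 mice was pooled for 1 library per tissue. No transgene or treatment is named for them. With 1 pooled library there are no replicates, no test between conditions and no p-value, and every interval given here is a 95% interval that covers counting error only. The PG library held none of these cells. By the same rule, 0 of its 4699 barcodes were chosen, which allows a share of up to 0.0638% (3 of 4699), and the highest PG barcode reached 68.4 *Krt1*+*Krt10* UMIs per 10000. PG nevertheless held other suprabasal transcripts, with 1278 CPM (UMIs of a gene per 1000000 UMIs) of *Krtdap* and 217 CPM of *Sbsn* over its barcodes. Tissue and library cannot be told apart here. The libraries shared 0 of their kept barcodes, but their files list 6794880 barcodes for skin and 737280 for PG, so the lists differ.

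The epidermis renews itself from a basal layer that is anchored to the basement membrane by integrins and collagen XVII and contains the keratins K5 and K14. Cells that leave this layer switch to the keratins K1 and K10, form many desmosomes in the spinous layer and, in the granular layer above it, make loricrin, filaggrin and the lipids and proteases of the barrier. Loricrin (*Lor*) is the most abundant protein of the cornified envelope and a classical mark of granular cells. Cells with at least 1 *Lor* UMI were therefore set beside those with none.

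Promoters are shown for 4 genes on which the description turns. They were picked from 8 that were searched because they hold a match and lie wholly before the annotated gene. These were *Krtdap* (keratinocyte differentiation-associated protein), *Lor*, *Flg2* (filaggrin 2) and *Hrnr* (hornerin, a filaggrin relative). The sequences are the 250 bases before the annotated start, from RefSeq on GRCm38.p6, read 5′ to 3′ on the gene's strand. *Krtdap* is chr7:30787655-30787904 (+), *Lor* chr3:92083143-92083392 (-), *Flg2* chr3:93197023-93197272 (+) and *Hrnr* chr3:93319499-93319748 (+), all upstream of the gene. Capitals mark TGANTCA, the letters of the AP-1 motif, and TATAAA, the letters of the TATA box, searched on both strands. The matches do not overlap each other.
Krtdap: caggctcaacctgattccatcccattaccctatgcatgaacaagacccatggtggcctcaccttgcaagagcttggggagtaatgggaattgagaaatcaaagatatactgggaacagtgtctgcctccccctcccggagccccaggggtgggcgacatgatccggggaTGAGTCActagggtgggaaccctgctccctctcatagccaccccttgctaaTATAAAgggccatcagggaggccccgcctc
Lor: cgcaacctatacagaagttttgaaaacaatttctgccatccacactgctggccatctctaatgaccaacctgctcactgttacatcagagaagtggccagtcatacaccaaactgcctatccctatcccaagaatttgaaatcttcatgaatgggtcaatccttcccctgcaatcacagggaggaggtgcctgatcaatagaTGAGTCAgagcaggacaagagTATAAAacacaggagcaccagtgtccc
Flg2: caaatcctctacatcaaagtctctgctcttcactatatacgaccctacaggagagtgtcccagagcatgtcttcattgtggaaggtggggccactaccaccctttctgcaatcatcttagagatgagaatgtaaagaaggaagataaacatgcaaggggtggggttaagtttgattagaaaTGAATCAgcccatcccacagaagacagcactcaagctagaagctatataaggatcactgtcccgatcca
Hrnr: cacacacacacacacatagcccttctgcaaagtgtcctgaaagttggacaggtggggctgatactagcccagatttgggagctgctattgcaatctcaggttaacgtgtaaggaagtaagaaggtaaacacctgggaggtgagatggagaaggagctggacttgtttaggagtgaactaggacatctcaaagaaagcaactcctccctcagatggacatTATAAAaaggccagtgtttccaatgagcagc
TGANTCA began 81 bases before the start in *Krtdap*, 48 in *Lor* and 69 in *Flg2*. TATAAA began 30 bases before it in *Krtdap*, 27 in *Lor* and 31 in *Hrnr*. Of the other 4 promoters searched, *Sbsn* held TGANTCA, *Krt10* held TATAAA, and *Krt77* and *Krt14* held neither. Of 27018 RefSeq promoters of the same length, 6.87% held TGANTCA and 12.97% held TATAAA. Among the 31 cornified envelope genes with a promoter in the table, 8 held TGANTCA and 11 held TATAAA, against 3 and 4 of 19 spinous genes and 0 and 1 of 9 basement membrane genes. A match is a string of letters and not a measured binding site.

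Suprabasal markers that did not choose the cells were found in nearly all of them. *Krtdap* (chr7:30787905-30791089) was detected in 96.7% and *Sbsn* (suprabasin, chr7:30732674-30756134) in 94.3% of the 1154 cells. *Krtdap* stood at 12847 CPM and *Sbsn* at 10235 CPM, against 105 and 210 CPM in basal KC. They were not particular to suprabasal KC. In the follicle KC described below, *Sbsn* stood at 4699 CPM. The log2 ratios of suprabasal over follicle KC were 1.12 for *Sbsn* and 2.25 for *Krtdap*. The cells held a median of 3194 UMIs (1000 to 24966) and 1195 genes, with a median of 2.35% mitochondrial UMIs, and 4669871 UMIs in all. Basal markers were low but not absent. The 8 markers of basal KC summed to 3486 CPM, led by *Krt15*, against 28063 CPM in basal KC. Basal KC were chosen by *Krt5* and *Krt14*, which are among these markers, so their sum follows in part from that choice. *Krt14* alone made up 11047 CPM of it.

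*Krt1* (ENSMUSG00000046834, chr15:101845426-101850786), a type II keratin, and its type I partner *Krt10* (ENSMUSG00000019761, chr11:99385254-99397449) varied widely among the cells. Their sum had a median of 228 UMIs per 10000 (101 to 714). *Krt10* had a median of 162 UMIs per 10000 (21.9 to 576) and had a UMI in 100% of the cells. *Krt1* had a median of 62.2 UMIs per 10000 (0 to 317) and was missing from 40 of the 1154 cells (3.47%, 2.49 to 4.69%). In the plot of the pair, most cells form a single cloud and a band of cells with *Krt10* but little *Krt1* lies along the axis.

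**Figure D1:**
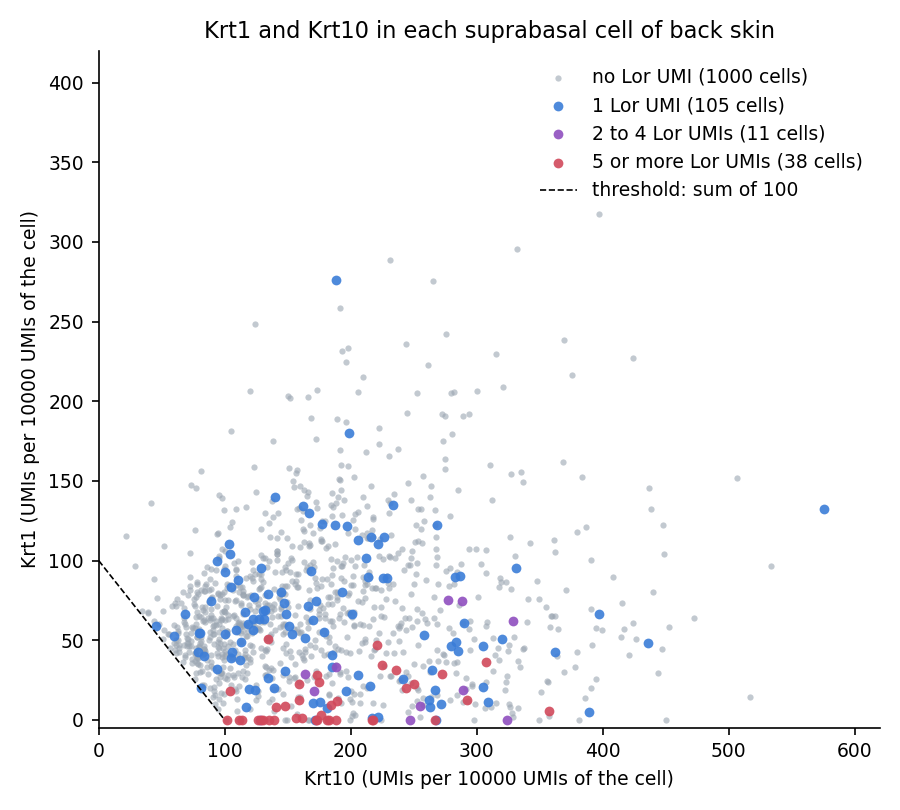
Each point is 1 of the 1154 suprabasal cells, with *Krt10* on the x axis and *Krt1* on the y axis, both in UMIs per 10000 UMIs of the cell, and the colour gives its *Lor* UMIs. The 38 cells with 5 or more *Lor* UMIs lie low on the *Krt1* axis, at a median of 4.26 per 10000, against 64.3 in the 1000 cells with none.

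The share of *Krt1* among the *Krt1*+*Krt10* UMIs was 24.5% over all the cells (24.2 to 24.7%). It was lower where *Lor* was higher. Cells with no *Lor* UMI stood at 27.0% (26.7 to 27.3%), cells with 1 *Lor* UMI at 21.01% (20.3 to 21.7%) and cells with 5 or more at 7.82% (7.25 to 8.41%). These are shares of pooled UMIs of the genes that chose the cells, and single cells with 5 or more *Lor* UMIs ranged widely, with a median of 1.63% and quartiles of 0 and 9.26%. *Krt1* was missing from 16 of the 38 cells with 5 or more *Lor* UMIs (42.1%, 26.3 to 59.2%) and from 19 of the 1000 *Lor*-free cells (1.90%, 1.15 to 2.95%), at median depths of 8938 and 2939 UMIs. Of the 16, 11 were among the 17 cells with follicle keratins described below. *Krt10* stood at 17777 CPM in *Lor*-free cells and at 19054 CPM in cells with 5 or more *Lor* UMIs. The rule bears on this, since a cell with little *Krt1* was chosen only if its *Krt10* was high, and the lowest *Krt10* in the latter cells was 101 per 10000. By the sum of both keratins, the *Krt1* share was 29.9% in the 216 cells at 100 to 150 per 10000, 24.7% in the 601 cells at 150 to 300 and 22.8% in the 337 cells at 300 and over.

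Basal markers were lower where *Krt1*+*Krt10* was higher. The 8 such genes summed to 8281 CPM at 100 to 150 per 10000, 2977 CPM at 150 to 300 and 1301 CPM at 300 and over. Of 2953 genes with at least 50 CPM in any of these groups, 26.2% were lower at each step, against 6 of the 7 basal markers at that level, with *Trp63* the exception, and 3 of 5 basement membrane genes. The lists share *Col17a1*, *Itga6*, *Itgb4* and *Dst*, so these counts are not separate. *Krt14*, the type I keratin of the basal layer, stood at 11047 CPM in basal KC, which it helped to choose. It stood at 2645, 477 and 240 CPM in the cells at 100 to 150, 150 to 300 and 300 and over. *Krt77*, a further type II keratin of suprabasal layers, stood at 3049, 7007 and 12807 CPM in the same groups. At least 100 UMIs per 10000 of *Krt5*+*Krt14* were held by 28 of the 216 cells at 100 to 150 (12.96%, 8.79 to 18.2%) and by 2 of the 337 cells at 300 and over (0.593%, 0.0720 to 2.13%). Barcodes that resembled simulated doublets made up 54 of the 216 cells in the lowest group (25%), 57 of the 601 in the middle one (9.48%) and 12 of the 337 in the highest (3.56%). Without them, *Krt14* stood at 1617, 295 and 112 CPM in the 3 groups, in the same order. The score was tried only on made doublets of suprabasal KC and fibroblasts. How well it marks doublets of suprabasal and basal KC was not tested. The groups also differed in median mitochondrial share, at 2.14, 2.05 and 3.67% of UMIs, and in median depth, at 3340.5, 3407 and 2571 UMIs. The part of these differences in the levels was not tested.

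*Lor* (ENSMUSG00000043165, chr3:92080271-92083142) had a UMI in 154 of the 1154 cells (13.3%, 11.4 to 15.4%). Most of these held very little. There were 105 cells with 1 *Lor* UMI, 10 with 2, 1 with 3 and 38 with 5 or more, of which 20 held more than 50. The 38 cells held 2981 of the 3109 *Lor* UMIs. The share of cells with a *Lor* UMI was 6.24% in basal KC, 7.10% in follicle KC and 3.73% in fibroblasts, which should lack the gene, at median depths of 2655, 2509 and 1822 UMIs. Fibroblasts were the cells with at least 100 UMIs per 10000 of *Col1a1*, *Col1a2*, *Col3a1* and *Dcn* together and under 100 of *Krt1*+*Krt10*. Free RNA in barcodes of at most 100 UMIs held 535 CPM of *Lor*. After each cell was thinned to 1000 UMIs, the share was 5.63% in suprabasal KC (4.37 to 7.12%), 2.99% in basal KC (2.19 to 3.98%) and 1.54% in fibroblasts (0.842 to 2.56%). Depth differed between the groups, with a median of 2939 UMIs in the 1000 *Lor*-free cells, 4562 in cells with 1 *Lor* UMI and 8938 in cells with 5 or more. Since basal KC and fibroblasts hold *Lor* UMIs as well, the 154 cells are called *Lor*-positive here. The groups by number of *Lor* UMIs were formed after these values were seen.

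**Figure D2:**
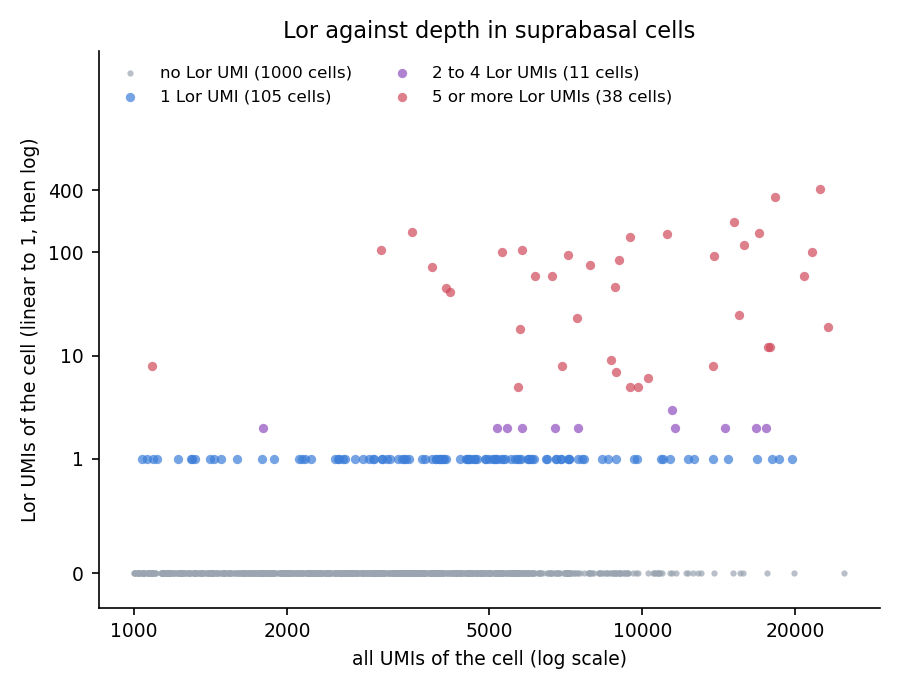
Each point is 1 suprabasal cell, with all its UMIs on the x axis (log scale) and its *Lor* UMIs on the y axis (linear from 0 to 1, then log). The 105 cells with 1 *Lor* UMI lie between 1036 and 19741 UMIs, among *Lor*-free cells of 1000 to 24966 UMIs, while the 38 cells with 5 or more reach 413 *Lor* UMIs.

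Most *Lor* UMIs of the skin lay outside the suprabasal cells as chosen here. All kept barcodes held 23878 *Lor* UMIs, of which the suprabasal KC held 13.02%. A further 49 barcodes with 5 or more *Lor* UMIs, below the *Krt1*+*Krt10* threshold or with cell cycle genes, held 20282 of them (84.9%) and reached 1454 UMIs in 1 cell. Their *Krt1*+*Krt10* sum had a median of 23.9 per 10000. They held 191 CPM of *Krt1* and 3317 CPM of *Krt10*, but 54659 CPM of *Lor*, 34463 CPM of *Crct1* (cysteine-rich C-terminal 1), 24332 CPM of *Lce1m* (a late cornified envelope protein) and 5441 CPM of *Flg* (filaggrin). *Lce1m* stood at 171 CPM in the 38 suprabasal cells with 5 or more *Lor* UMIs and at 7.79 CPM in *Lor*-free cells. The *Krt1* share was 5.45% (4.28 to 6.83%) in the 49 barcodes. At least 20 UMIs per 10000 of the follicle keratins *Krt17*+*Krt79* were held by 22 of them (44.9%, 30.7 to 59.8%). Markers of the upper follicle summed to 19719 CPM in the 49 barcodes, led by *Cst6* at 13933 CPM.

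Suprabasal KC were next compared with basal KC of the same library, 1507 cells with at least 100 UMIs per 10000 of *Krt5*+*Krt14*, under 50 of *Krt1*+*Krt10* and under 20 of *Krt17*+*Krt79*. Levels are the summed UMIs of a group in CPM, and ratios are between groups for 1 gene, never between genes. Of 2838 genes with at least 50 CPM in either group, 411 were at least 2-fold higher in suprabasal KC (14.5%) and 273 were at least 2-fold lower (9.62%), and the median log2 ratio over all of them was -0.01. Since *Krt1*, *Krt10* and the basal keratins chose both groups, these ratios describe them and test nothing. A gene entered through either group, so a gene that is low in one group could enter only by being higher in the other. The list counts and medians below carry this direction in part and support nothing. Counts over the genes with at least 50 CPM in the group where a list is lower are given beside most of them. The shares over all genes are of genes at 50 CPM in either group. The restricted counts therefore have no matching share and only describe the lists. Among the 12 genes with the largest ratios were *Skint9* at 110 CPM against 0.222, *Krt78* at 221 against 1.11, *Krtdap*, *Klk5* and *Klk7* (kallikrein proteases of desquamation), *Hal* (histidine ammonia-lyase, which makes urocanic acid) at 236 against 1.996, and *Orm1* at 550 against 7.09. Several of these basal levels rest on few UMIs, with 1 for *Skint9*, 4 for *Klk5*, 5 for *Krt78* and 9 for *Hal*. The log2 ratio of *Skint9* was 8.95 (6.47 to 14.3). *Serpinb12*, a serpin protease inhibitor, had 0 UMIs in basal KC. It was at least 156-fold higher in suprabasal KC (104 CPM, floor of 3 UMIs over the group).

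The 20 measured spinous genes other than *Krt1* and *Krt10* summed to 66752 CPM in suprabasal and 14344 CPM in basal KC. Of the 17 with at least 50 CPM, 16 were at least 2-fold higher in suprabasal KC and 0 were lower, with a median log2 ratio of 4.79. Of the 9 that reached 50 CPM in basal KC, 8 were higher, with a median of 4.40. *Krt77* stood at 7823 CPM against 71.8 in basal KC and *Calm4* (a calmodulin-like calcium sensor of skin) at 5448 against 258. *Mt4*, the metallothionein of stratified epithelia, stood at 2146 against 77.4 CPM, while *Mt1* and *Mt2* were lower, at 724 against 1465 and 240 against 814 CPM. *Lgals7* (galectin-7) was the gene past neither fold, at 20060 against 11778 CPM. Several *Skint* genes, which are related to each other in sequence, were near 0 in basal KC, and their counts are uncertain where reads map to more than one copy. *Skint3*, *Skint5* and *Skint9* had UMIs in 21.9%, 23.5% and 25.5% of suprabasal KC and in at most 0.464% of basal KC.

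Genes of the cornified envelope were higher too, at much lower levels. The 37 measured genes summed to 2858 CPM in suprabasal and 332 CPM in basal KC. Of these, 24 were under 50 CPM in both groups, and the other 13 were at least 2-fold higher in suprabasal KC, with a median log2 ratio of 5.28. Only *Evpl*, *Ppl* and *Scel* reached 50 CPM in basal KC, with a median of 1.66. *Ppl* (periplakin) and *Evpl* (envoplakin), which line the early envelope, were detected in 60.9% and 52.9% of suprabasal KC, at 410 and 259 CPM. *Ivl* (involucrin) had UMIs in 17.8%, *Flg2* in 7.54% and *Hrnr* in 5.98%. The *Sprr* and *Lce* families hold near-identical copies, and their counts are uncertain for the same reason as those of *Skint*.

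Barrier proteases, inhibitors and lipid enzymes were compared next. Among 15 proteases and inhibitors, 9 were at least 2-fold higher and 1, the lysosomal protease *Ctsl* (67.5 against 236 CPM), was lower, with a median of 1.40. Of the 7 with 50 CPM in basal KC, 2 were higher and 1 lower, with a median of 0.87. *Spink5*, an inhibitor of kallikreins, stood at 670 against 12.2 CPM and *Cst6* (cystatin M/E) at 1935 against 72.3 CPM. Of 14 genes of barrier lipid synthesis, 11 were at least 2-fold higher and 0 lower, with a median of 2.64. Only 1 of them reached 50 CPM in basal KC, and it was within 2-fold, with a log2 ratio of 0.67. All 11 therefore entered through suprabasal KC. The 29 measured genes summed to 2220 against 389 CPM. They included *Elovl4*, which elongates very long chain fatty acids (358 against 4.66 CPM, log2 ratio 6.27, 5.65 to 6.96), *Acer1*, a ceramidase (196 against 4.88 CPM), and *Abca12*, the lipid transporter of lamellar granules (145 against 8.20 CPM).

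Junction genes differed by family member. Of 14 desmosome and adhesion genes, 8 were at least 2-fold higher and 2 lower (6 and 2 of the 12 with 50 CPM in basal KC). The desmosomal cadherins *Dsc1* (131 against 1.996 CPM), *Dsg1a* (905 against 176) and *Dsg1b* (104 against 11.8) were higher, while *Dsg2* (6.64 against 84.0) and *Dsg3* (32.1 against 173) were lower. *Dsp* (desmoplakin), which ties desmosomes to keratin filaments, stood at 2452 against 960 CPM. Of 10 tight and gap junction genes, 5 were at least 2-fold higher, *Cldn4* (claudin 4), *Cgn* (cingulin) and *Gjb5* among them, and 1, *Gja1* (connexin 43), was lower, at 92.1 against 244 CPM. All 5 entered through suprabasal KC, and of the 4 genes with 50 CPM in basal KC, 0 were higher and 1 lower, with a median of 0.23. Genes of basement membrane adhesion summed to 1085 CPM in suprabasal and 4700.0 CPM in basal KC. Of 13 genes, 0 were at least 2-fold higher and 12 were at least 2-fold lower, with a median of -2.93. Of the 5 with 50 CPM in suprabasal KC, 4 were lower, with a median of -1.78. *Itgb1* stood at 24.8 against 253 CPM, *Itga6* at 76.7 against 455 and *Lamb3* at 12.6 against 190, whereas *Col17a1* was still detected in 54.7% of suprabasal KC (395 against 1831 CPM).

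Among 17 transcription factors of epidermal differentiation, 6 were at least 2-fold higher in suprabasal KC and 1, *Bhlhe40*, was lower, with a median log2 ratio of 0.61. Over the 12 with 50 CPM in basal KC, 1 was higher and 1 lower, with a median of -0.01. *Zfp750*, a factor needed for terminal differentiation, stood at 149 against 9.98 CPM, *Grhl1* at 167 against 21.1 and *Cebpa* at 180 against 31.04. *Klf4*, a further factor of barrier formation, stood at 735 against 444 CPM, and *Trp63*, which maintains the basal state, at 160 against 246 CPM. Both were within 2-fold. In the Notch pathway, which drives exit from the basal layer, the target *Hes1* stood at 308 against 152 CPM and the ligand *Jag2* at 9.85 against 143 CPM, and *Notch1* at 85.4 against 101 CPM was within 2-fold. Of 20 immediate early and stress genes, 0 were at least 2-fold higher and 4 were lower (*Ier3*, *Socs3*, *Fosb*, *Atf3*), with a median of -0.57. Of the 19 with 50 CPM in suprabasal KC, 3 were lower, with a median of -0.53. *Fos*, a subunit of AP-1, stood at 792 against 1485 CPM. Ribosomal protein genes had a median of -0.24 with 0 of 83 past 2-fold in either direction. Of 15 calcium-binding and S100 genes, 3 were higher, *Calm4* among them, and 4 S100 genes were lower, with a median of 0.34. Over the 14 with 50 CPM in basal KC, 2 were higher and 4 lower, with a median of 0.10. Of 5 retinoid and metallothionein genes, 3 were higher (*Mt4*, *Crabp2*, *Rdh12*) and 2 lower (*Mt1*, *Mt2*), with a median of 1.81. Over the 3 with 50 CPM in basal KC, which leave out *Crabp2* and *Rdh12*, the median was -1.02. Of 5 Notch genes, 2 were higher, *Hes1* among them, and 1, *Jag2*, was lower, with a median of -0.24. Of the 4 with 50 CPM in basal KC, 1 was higher and 1 lower, with a median of -0.33. The ribosomal list also took in a few *Rps6k* kinase genes by their symbols.

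**Figure D3:**
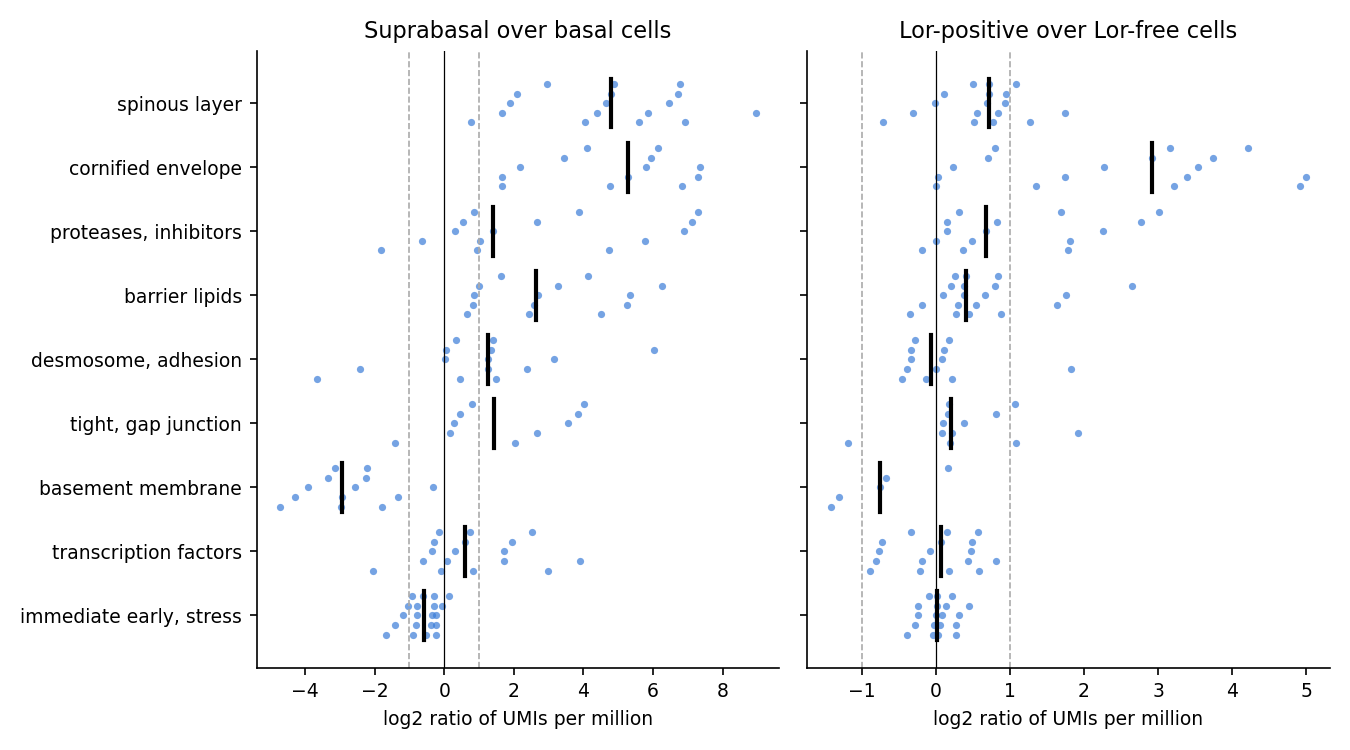
Each point is 1 gene with at least 50 CPM in either group, on an x axis of log2 ratios of CPM, and the black bar is the median of the list. Dashed lines mark 2-fold. The left panel has suprabasal over basal cells, with the cornified envelope list at 5.28 and basement membrane adhesion at -2.93, and the right panel has *Lor*-positive over *Lor*-free cells on its own scale, with the same lists at 2.92 and -0.75. Genes that are low in the second group entered only by being higher in the first.

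Within the suprabasal KC, the 154 *Lor*-positive cells were then set beside the 1000 *Lor*-free cells. *Lor* chose the groups. Of 2727 genes with at least 50 CPM in either group, 154 were at least 2-fold higher in *Lor*-positive cells (5.65%) and 55 at least 2-fold lower (2.02%), with a median log2 ratio of 0.00 over all of them. The 37 measured genes of the cornified envelope summed to 6432 CPM in *Lor*-positive and 1790 CPM in *Lor*-free cells. Of the 17 with at least 50 CPM in either group, 12 were at least 2-fold higher and 0 lower, with a median of 2.92. Most of these 12 entered through the *Lor*-positive group. Of the 7 that reached 50 CPM in *Lor*-free cells, 3 were at least 2-fold higher, *Ivl* among them, with a median of 0.79. The 5.65% over all genes was not taken under this limit. *Flg2* stood at 961 CPM against 30.04 in *Lor*-free cells (log2 ratio 4.999, 4.71 to 5.30), *Crct1* at 1079 against 35.6 (4.92, 4.66 to 5.20) and *Hrnr* at 268 against 14.5 (4.21, 3.78 to 4.67). They had UMIs in 35.7%, 32.5% and 30.5% of the *Lor*-positive cells. *Evpl* and *Scel* (sciellin) stood close to their *Lor*-free levels, with log2 ratios of 0.02 (-0.17 to 0.22) and 0.00 (-0.24 to 0.24), and *Ppl* was higher at 0.70 (0.56 to 0.84).

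The largest ratios outside that list were those of *Wfdc21*, which encodes a small secreted whey acidic protein (1121 against 11.1 CPM, log2 ratio 6.65, 6.20 to 7.15), and *Serpina12*, a serpin (235 against 4.17 CPM, 5.82, 5.07 to 6.68). *Lypd5*, *Ifitm6* and *Ereg*, a ligand of the epidermal growth factor receptor, followed with log2 ratios of 4.05, 3.74 and 3.55. Of 15 barrier proteases and inhibitors, 6 were at least 2-fold higher (*Klk7*, *Csta1*, *Klk5*, *Spink5*, *Klk8*, *Cst6*) and 0 lower, or 5 of the 14 with 50 CPM in *Lor*-free cells. *Klk7* stood at 1053 against 130 CPM. Of 19 lipid genes, *Smpd1* (acid sphingomyelinase), *Elovl1* and *Aloxe3* were at least 2-fold higher and 0 lower, with a list median of 0.40. *Smpd1* and *Aloxe3* entered through the *Lor*-positive group, and of the 13 with 50 CPM in *Lor*-free cells 1 was higher, with a median of 0.29. Of 17 spinous genes, *Calml3*, *Sbsn* and *Ly6g6c* were at least 2-fold higher and 0 lower, with a median of 0.71. Transcription factors and immediate early genes showed 0 of 17 and 0 of 19 past 2-fold, with medians of 0.06 and 0.02. Over the 15 transcription factors with 50 CPM in *Lor*-free cells, 0 were past 2-fold, with a median of -0.08. The calmodulin gene *Calm2* (1871 against 768 CPM) was past it.

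Lower in *Lor*-positive cells were the basal genes *Col17a1* (172 against 462 CPM), *Dst* (116 against 288), *Krt5* (286 against 653) and *Krt14* (438 against 912). The 12 smallest ratios, which do not include *Krt14*, also took in 5 genes of other kinds, *Gja1* and *Mt2* among them, and 4 transcripts of blood, muscle or ribosomal RNA. *Hbb-bs* (haemoglobin) stood at 46.5 against 236 CPM, *Tnnc2* and *Mylpf* (skeletal muscle) at 27.9 against 109 and 47.4 against 116 CPM, and *Gm42418*, a gene model that overlaps ribosomal RNA, at 9701 against 22046 CPM. In free RNA the first 3 stood at 4703, 3057 and 2989 CPM and *Gm42418* at 209145 CPM. *Lor*-free cells were shallower. The part of free RNA in these 4 ratios was not tested.

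The difference was larger in cells with many *Lor* UMIs. Against *Lor*-free cells, 405 of 2888 genes (14.02%) were at least 2-fold higher and 320 (11.1%) at least 2-fold lower in the 38 cells with 5 or more *Lor* UMIs. In the 105 cells with 1 *Lor* UMI, 23 of 2637 genes (0.872%) were higher and 22 (0.834%) lower. *Flg2* stood at 30.04 CPM in *Lor*-free cells, at 91.6 with 1 *Lor* UMI and at 2372 with 5 or more, and was detected in 3.20%, 10.5% and 94.7% of the cells. *Wfdc21* stood at 11.1, 17.6 and 2958 CPM. *Hrnr* stood at 14.5, 52.8 and 608 CPM. The order was milder for *Krtdap*, at 10614, 12857 and 31015 CPM, and for *Sbsn*, at 7720, 11417 and 28869 CPM. It ran the other way for *Mt4*, at 2357, 1990 and 608 CPM, for *Krt14*, at 912, 718 and 102 CPM, and for *Lgals7*, at 21015, 19981 and 11803 CPM. Without barcodes that resembled simulated doublets, *Krt14* stood at 499, 312 and 32.2 CPM, in the same order. The limit of the doublet score given above holds here too.

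**Figure D4:**
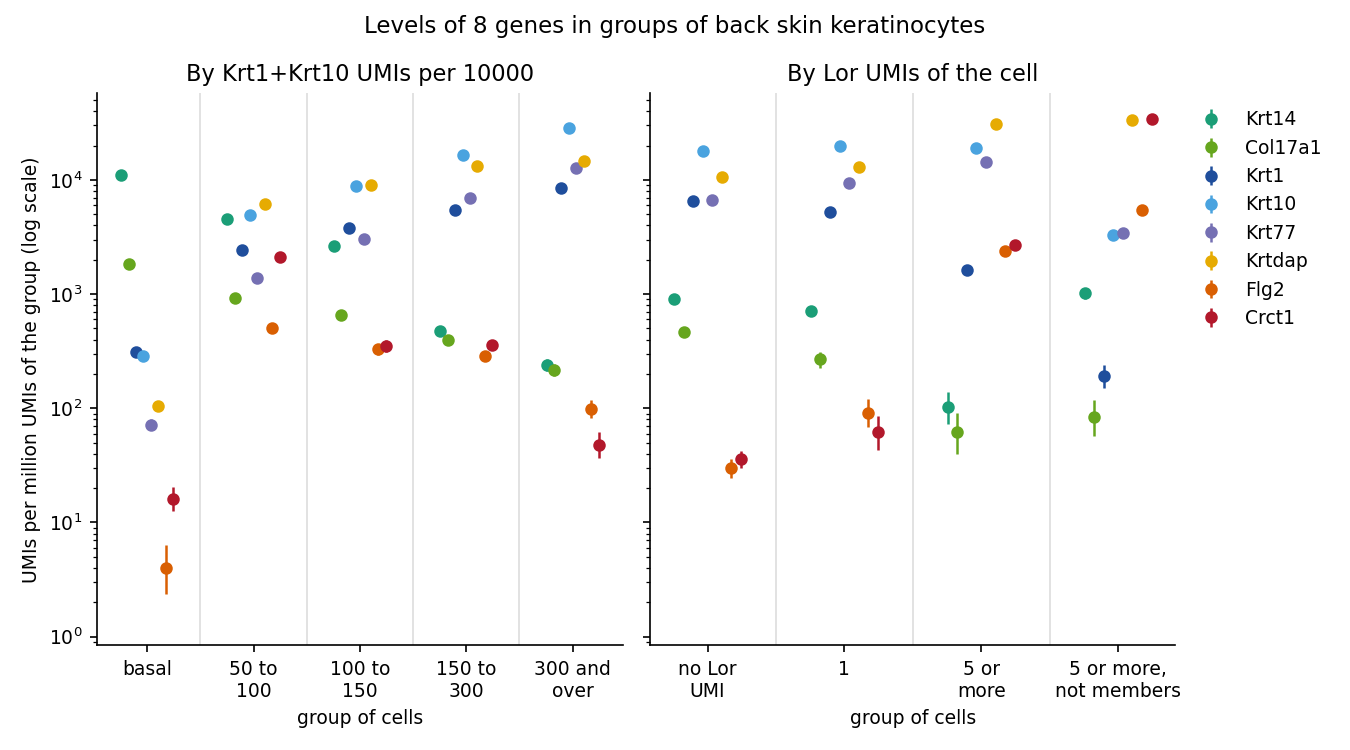
Levels of 8 genes in CPM (log y axis) by groups of cells on the x axis, with 95% Poisson intervals as bars, in panels by *Krt1*+*Krt10* UMIs per 10000 and by *Lor* UMIs. *Krt14* was lower in each group from 11047 CPM in basal cells, which it helped to choose, to 240 CPM at 300 and over. *Crct1* was higher in each group from 35.6 CPM in *Lor*-free cells to 34463 CPM in the 49 barcodes outside the threshold.

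In the 38 cells with 5 or more *Lor* UMIs, the cornified envelope genes summed to 12587 CPM. At least 2-fold higher than in *Lor*-free cells were 14 of 18 of them (median 3.35, or 5 of the 7 with 50 CPM in *Lor*-free cells, median 1.38), 10 of 17 proteases and inhibitors (1.34), 10 of 22 lipid genes (0.93) and 9 of 17 spinous genes (1.04), of which *Mt4* was at least 2-fold lower. Over genes with 50 CPM in *Lor*-free cells, 7 of 14 proteases and inhibitors (1.02) and 4 of 13 lipid genes (0.31) were higher. *Elovl1* stood at 794 against 126 CPM and *Spink5* at 2645 against 425 CPM. Of 8 basal markers, 7 reached 50 CPM and all of these were at least 2-fold lower, with a median of -2.77, as were the 5 with 50 CPM in the 38 cells, with a median of -2.87. Of 19 transcription factors, 3 were at least 2-fold higher (*Prdm1*, *Barx2*, *Cebpb*) and 4 at least 2-fold lower (*Maf*, *Trp63*, *Tfap2a*, *Tfap2c*), against 14.02% and 11.1% over all genes. Over the 15 with 50 CPM in *Lor*-free cells, 1 was higher and 4 lower (median -0.51), and over the 17 with 50 CPM in the 38 cells, 3 were higher and 2 lower (median 0.46). *Trp63* stood at 59.6 against 177 CPM. *Dsc1* (521 against 82.6 CPM) was the 1 desmosome gene past 2-fold upward, and *Dsc3* (392 against 956) and *Dsg1b* (44.7 against 110) were past it downward.

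The 38 cells differed in follicle keratins over a continuous range, with a median of 15.2 *Krt17* UMIs per 10000 (0 to 109). At least 20 UMIs per 10000 of the follicle keratins *Krt17*+*Krt79* were held by 17 of them (44.7%, 28.6 to 61.7%), against 37 of the 1000 *Lor*-free cells (3.70%, 2.62 to 5.06%) and 3 of the 105 cells with 1 *Lor* UMI (2.86%, 0.593 to 8.12%). This was *Krt17*, at 4563 CPM in the 17 cells, with 1 UMI of *Krt79*. *Krt1* stood at 766 CPM (628 to 926) in the 17 cells and at 2066 CPM (1896 to 2247) in the other 21. *Krt1* was missing from 11 of the 17 cells (64.7%, 38.3 to 85.8%) and from 5 of the other 21 (23.8%, 8.22 to 47.2%). *Krt10* stood at 18432 and 19384 CPM in the same groups. *Mt4* (150 against 851 CPM), *Serpinb2* (43.0 against 1367) and *Sprr1a* (14.3 against 1101) were lower in the 17 cells, and *Flg2* (3732 against 1652) and *Cst6* (11089 against 6125) higher. *Sprr1a* had UMIs in only 11.8% and 23.8% of the cells, so few cells set its level. Depths were 7143 and 10266 UMIs at the median. The limit of 20 was set after the values were seen and lies within that range, so it marks no separate classes.

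Suprabasal KC were also set beside 507 follicle KC, cells with at least 100 UMIs per 10000 of *Krt17*+*Krt79* and under 50 of *Krt1*+*Krt10*. In these follicle KC the *Krt1* share of pooled *Krt1*+*Krt10* UMIs was 11.8% (9.90 to 13.9%). Of 2863 genes, 266 were at least 2-fold higher in suprabasal KC (9.29%) and 255 at least 2-fold lower (8.91%). *Krt78* had 0 UMIs in follicle KC and was at least 118-fold higher. *Skint5* stood at 92.9 against 2.50 CPM, *Tesc*, a calcium-binding regulator, at 470 against 4.38 and *Gjb5* (connexin 31.1) at 146 against 11.3. Of 20 transcription factors, 6 were at least 2-fold higher and 2 lower (*Barx2*, *Vdr*), or 5 and 2 of the 17 with 50 CPM in follicle KC. The largest upward ratios were those of the nuclear receptor *Rora* (304 against 46.3 CPM), which entered through suprabasal KC, and *Gata3* (462 against 117 CPM). *Barx2* had the lowest log2 ratio, at -2.73. At least 2-fold higher in suprabasal KC were 9 of 14 barrier lipid genes, 5 of 13 cornified envelope genes and 6 of 15 proteases and inhibitors, and at least 2-fold lower were 0, 1 and 5. Over genes with 50 CPM in follicle KC, 3 of 7, 3 of 11 and 4 of 13 were higher. The 9.29% over all genes was not taken under this limit. Among the genes that were not higher, *Cst6* stood at 36330 CPM there against 1935, *Klk7* at 723 against 342 and *Flg* at 421 against 69.6, the last in 2.76% of the cells. *Crct1* (265 against 276 CPM) and *Dsc1* (141 against 131) were within counting error of each other, with log2 ratios of 0.06 (-0.10 to 0.22) and -0.11 (-0.33 to 0.11).

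After thinning, the genes that varied most among suprabasal KC beyond counting noise were *Gm42418*, *Malat1*, *Cst6*, *Krt17*, *Krt77*, *Sbsn*, *Krt14*, *Krtdap*, *Krt15*, *Serpinb2*, *Hspb1* and *S100a6*. The ratio of variance to mean was 13.9 for *Cst6* and 10.6 for *Krt77*, against a median of 1.11 over 458 genes. *Krt77* ranged from 0 to 663 UMIs per 10000 among *Lor*-free cells, with a median of 24.97, and from 66.2 to 360 among the 38 cells with 5 or more *Lor* UMIs, with a median of 143. *Krt15*, a keratin of basal and bulge cells, had a UMI in 42.0% of the suprabasal KC and in 97.7% of basal KC.

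Markers of other cell types ranged from near 0 to those of the upper follicle. The 6 fibroblast markers summed to 314 CPM in *Lor*-free cells, led by *Dcn*, and to 36.3 CPM in *Lor*-positive cells, against 34249 CPM in fibroblasts. The fibroblasts were chosen by *Col1a1*, *Col1a2*, *Col3a1* and *Dcn*, which are in this list, so their sum follows in part from that choice. At least 3 of the 6 markers were found in 24 of the 1000 *Lor*-free cells (2.40%). The 6 immune markers summed to 31.4 CPM in *Lor*-free and 157 CPM in *Lor*-positive cells, led by *Cd74*, with *Cd3e* at 0 UMIs in the latter. *Pecam1*, the endothelial marker with the most UMIs, stood at 84.4 CPM in the 38 cells with 5 or more *Lor* UMIs, where *Cdh5*, *Kdr* and *Flt1* had 0 UMIs, and it was detected in 2.63% of these cells. Markers of the upper follicle summed to 1878 and 5460 CPM in *Lor*-free and *Lor*-positive cells, led by *Cst6*. They summed to 9949 CPM in the 38 cells with 5 or more *Lor* UMIs, of which *Cst6* made up 7844, against 65852 CPM in follicle KC. Follicle KC were chosen by *Krt17* and *Krt79*, which are in this list, so their sum follows in part from that choice. The list did not move as one. Of its 4 genes with 50 CPM, *Krt17* and *Cst6* were at least 2-fold higher in *Lor*-positive cells and *Defb6* lower. In the 38 cells *Krt17* and *Cst6* were higher and *Krt79* and *Defb6* lower, with a median log2 ratio of 0.36. The part of these follicle markers in the results on *Lor*-positive cells was not tested. The 6 sebocyte markers summed to 192 and 174 CPM, led by *Scd1*, with *Awat2* at 0 UMIs in both groups. The 6 muscle markers summed to 171 and 45.6 CPM, led by *Tnnc2*. Inner root sheath and hair markers summed to 87.1 and 38.1 CPM, companion layer and stress keratins to 287 and 117 CPM, and melanocyte markers to 37.0 and 22.3 CPM.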

How the data were processed

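Dissociated back skin and PG of 3 pooled mice were sequenced on the Chromium 3′ platform, which marks each molecule with a UMI. The authors aligned and counted the reads with Cell Ranger 4 (per the file headers) against mm10 (per the submitters' processing notes) and deposited unfiltered UMI counts of 32285 genes per barcode. The skin library held 37675226 UMIs and the PG library 26288071. From these counts, barcodes were filtered and cells chosen as given above, with no clustering and no doublets removed; a score against simulated doublets, which marked 634 of 8899 skin barcodes (7.12%), was an alternative. Shares have exact Clopper-Pearson intervals, CPM exact Poisson intervals and ratios the matching binomial interval. The ratio intervals were tried only on simulated Poisson counts. Those hold no variation between cells beyond counting error, so they could not check the intervals against it. With 1 library per tissue no count model was run. A gene at 0 UMIs was set to a floor of 3 UMIs over the group. For each comparison, the 12 highest and 12 lowest ratios were named, counting genes that reached 100 CPM and were detected in 10% of cells in one of the groups, and the 12 most variable genes after thinning to 1000 UMIs, leaving out genes of the rule, mitochondrial and ribosomal protein genes, beside the genes of 13 lists and 11 marker lists. The members, lists and rules were chosen with earlier results of these data known. The follicle comparison, the groups by *Lor* and keratin level and the *Krt1* share were added after the values were seen. Coordinates are those of RefSeq genes on GRCm38.p6, the assembly of mm10. Of 10 promoters looked up, 8 were in the table. Python 3.11.15, numpy 2.4.6, scipy 1.17.1, pandas 2.3.3 and scikit-learn 1.9.0 were used. Values of a few listed genes are not reported here. The comparison with PG cells of the same rule was planned and gave no value, since PG held none.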

Additional observations from a re-analysis of the deposited data

How the results depend on the processing

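The number of suprabasal KC was 698 at 200 *Krt1*+*Krt10* UMIs per 10000 and 739 with at least 1000 genes and 2000 UMIs, against 1154. The share of cells with a *Lor* UMI was 17.9% with the latter filter, 4.25% at 2 or more *Lor* UMIs, 3.29% at 5 or more and 5.63% after thinning, against 13.3%. The genes at least 2-fold higher and lower in *Lor*-positive cells numbered 405 and 320 at 5 or more *Lor* UMIs, 495 and 356 after thinning, where levels rest on few UMIs, and 371 and 539 with genes from 10 CPM, against 154 and 55. Suprabasal over basal, genes from 10 CPM gave 863 and 917, against 411 and 273. Of 26 list medians, 6 changed sign under an alternative. Over basal KC, calcium and S100 genes went from 0.34 to as low as -0.03 and Notch genes from -0.24 to 0.06, and in *Lor*-positive cells immediate early genes went from 0.02 to as low as -0.22. The cornified envelope median over basal KC ranged from 3.98 to 5.86. Over 392 results and 15 alternatives, 4 ratios of single genes past 2-fold reversed. *Gjb2* in *Lor*-positive over *Lor*-free cells was -0.26 after thinning. Over basal KC, *Col1a1* and *Col1a2* were -0.32 and -0.51 at 200 *Krt1*+*Krt10* UMIs per 10000. *Krt17* was -0.94 with no limit on *Krt17*+*Krt79* in basal KC. The main rule for basal KC used *Krt17*, so the main *Krt17* ratio carries that choice. The causes of the other changes were not tested. The alternatives for the comparison with PG were not run, since PG held none of these cells. No paired analysis was possible because each tissue had 1 library. Depth limits the rarer groups, and a level of 0 in the 38 cells with 5 or more *Lor* UMIs allows up to 7.44 CPM.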
